A study of Mus musculus with 6 samples.

Results

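The genes described here encode the semaphorin, ephrin, Slit and netrin guidance systems: the ligands and their plexin, neuropilin, Eph, Robo and Unc5 receptors. They were chosen by symbol alone, and 69 of the 35688 rows of the deposited gene table matched. All RNA came from the mouse cell line m1102, derived from the ovarian surface epithelium (OSE), the layer that covers the ovary. The 6 libraries fell into 2 groups. In the TGFB1 group (3 libraries) the cells had received 10 ng/mL TGFB1 for 4 days before RNA was extracted, and in the untreated group (3 libraries) they had received none. Both groups grew in the same serum-containing medium with EGF, and all libraries come from this single line. The cytokine TGFB1 drives matrix synthesis and the switch of epithelial cells to a mesenchymal state in many tissues. Poly(A)-selected RNA was sequenced, and the values are abundances per gene on the TPM scale. That scale corrects for transcript length so that levels can be compared between genes. The column totals ran from 983434 to 987121 in the TGFB1 libraries and from 1006783 to 1026702 in the untreated ones. The values are therefore not plain TPM. Values are given in the order of replicates 1 to 3, and means as mean ± SD (n = 3 per group).

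Guidance ligands are secreted or membrane-bound proteins that attract or repel cells carrying their receptors. Semaphorins signal through plexins, and most secreted class 3 semaphorins need a neuropilin as co-receptor. Ephrins are held on the cell surface and bind Eph receptor tyrosine kinases on a touching cell, with signals running in both directions. Slits bind Robo receptors and netrins bind Dcc and Unc5 receptors. First described in growing axons, these systems also act in epithelial sorting, cell migration and vessel growth.

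After TGFB1, 20 of the 42 guidance genes abundant enough to be tested were higher and 6 were lower. Of all 12257 tested genes 15.8% were called higher and 14.6% lower, so 26 of 42 members stood beside a background of 30.4%. Because the set was chosen with earlier results known, these shares describe it and are no test of it. The rise was seen in Sema3a, Sema3c, Sema3d, Plxna1, Nrp2, Slit3, Unc5b and the 3 tested EphB receptor genes, among others. Plxna4, Sema4a, Sema6d, Efna1, Efnb1 and Epha7 were lower. A gene was tested where its mean over the 6 libraries was at least 1 TPM, and called where limma's adjusted p was under 0.05 (two-sided, Benjamini-Hochberg over all tested genes). Fold changes are TGFB1 over untreated, taken on log2(TPM + 1), and the added 1 shrinks the change of genes with low values. The median log2 fold change was 0.39 over the 42 tested members and 0.02 over all tested genes. The remaining 27 members were under 1 TPM on average and were not tested. Sema7a was the only tested member with a group mean under 1 TPM. Unc50, a Golgi and membrane-trafficking gene, and Unc5cl matched by their letters and are not netrin receptors; Unc50 was at 70.8 ± 7.79 TPM with TGFB1 and 73.5 ± 3.43 TPM without and was not called (log2 fold change -0.06), and Unc5cl was listed at 0 in every library.

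**Figure D1:**
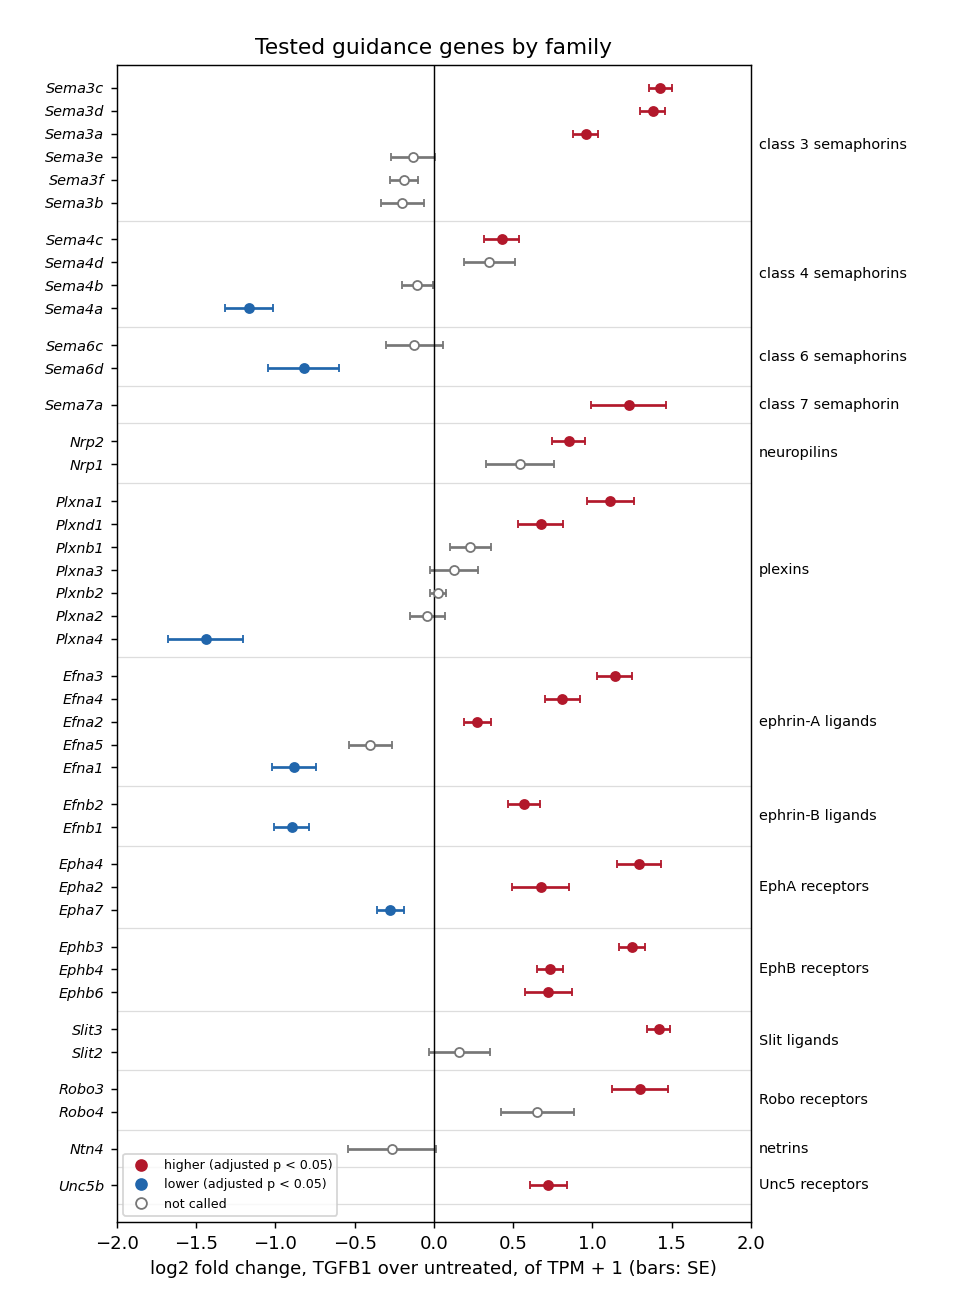
Log2 fold change of TPM + 1 (TGFB1 over untreated, x axis) of the 41 tested guidance genes by family, without Unc50; points are limma estimates, bars are SE, and filled points have an adjusted p under 0.05. Values run from 1.43 for Sema3c to -1.44 for Plxna4, and the 3 EphB receptors and Unc5b lie to the right of 0 while both ephrin-B genes are called on opposite sides.

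Library facts bear on all values below. TGFB1 replicate 1 stood apart, at 46.6 on the first principal component against 18.1 to 20.2 for the other TGFB1 libraries and -29.8 to -27.1 for the untreated ones. It was also the TGFB1 library farthest from the untreated ones in 19 of the 26 called guidance genes. That count was not made over all called genes, so it shows nothing particular to the guidance genes. Without TGFB1 replicate 1, 22 members were higher and 6 lower, beside 1992 and 1951 of 12243 genes. Leaving out TGFB1 replicate 2 gave 19 higher and 5 lower, beside 1310 and 1291 of 12254 genes. Leaving out TGFB1 replicate 3 gave 18 and 5, beside 1433 and 1400 of 12252 genes. Leaving out untreated replicates 1, 2 and 3 in turn gave 19, 17 and 16 higher, and 4 lower each time. Over all genes these fits gave 1189 and 1129 of 12264, 1352 and 1121 of 12271, and 1121 and 915 of 12278. Without untreated replicate 1 or 3, Sema4g also passed the filter, making 43 tested members. It is among those counted as higher there (adjusted p = 0.0426 to 0.0491). The labels do not say that the samples were separately treated cultures, so the spread behind the p-values may be partly or wholly technical. Read depth is unknown.

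Of 14 markers of ovarian surface epithelium and mesothelium, 9 averaged at least 1 TPM. Among them were Wt1 (means of 144 TPM with TGFB1 and 181 TPM without), Msln (means of 408 TPM with TGFB1 and 508 TPM without) and Upk3b (means of 112 TPM with TGFB1 and 283 TPM without). Cdh1, Krt8, Krt19, Lhx9 and Aldh1a2 averaged under 1 TPM. The summed level of the list was 1022 to 1391 TPM in the TGFB1 libraries and 2101 to 2207 TPM in the untreated ones, and the part of this shift in the guidance results was not tested. In bulk RNA, fewer cells of a type and less RNA per cell cannot be told apart. Endothelial markers, relevant because Robo4, Plxnd1 and Nrp1 are well known from vessels, summed to 5.33 to 5.79 TPM in the TGFB1 libraries and 3.60 to 4.48 TPM in the untreated ones. Of the 8 only Egfl7 and Pecam1 averaged 1 TPM or more, and Kdr, the main vascular VEGF receptor gene, averaged 0 TPM with TGFB1 and 0.0132 TPM without. Neuronal markers summed to 8.62 to 14.7 TPM in the TGFB1 libraries and 5.72 to 6.46 TPM in the untreated ones, which was nearly all Map2, and Rbfox3 and Nefl were listed at 0 throughout. Of the 8 leukocyte markers only Cd68 averaged at least 1 TPM (means of 8.79 TPM with TGFB1 and 22.7 TPM without), and the list summed to 8.37 to 11.2 TPM in the TGFB1 libraries and 19.7 to 27.4 TPM in the untreated ones. The 5 pericyte markers all averaged under 1 TPM, with sums of 0.275 to 1.53 TPM in the TGFB1 libraries and 0.0484 to 0.0830 TPM in the untreated ones. Glial markers summed to 44.8 to 48.1 TPM in the TGFB1 libraries and 43.1 to 46.6 TPM in the untreated ones, nearly all of it Mbp. Granulosa markers summed to 30.9 to 34.1 TPM in the TGFB1 libraries and 33.8 to 37.9 TPM in the untreated ones, from Foxl2 and Inha. Steroidogenic markers summed to 79.8 to 182 TPM in the TGFB1 libraries and 279 to 326 TPM in the untreated ones, nearly all of it Star.

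Neighbouring ephrin-A genes, 3 in all, lie together on chromosome 3, and their upstream sequences are shown because the neighbours went opposite ways: Efna1 was lower, while Efna3 and Efna4 were higher. On GRCm38 (GENCODE M21) Efna1 spans 89271733 to 89281142, Efna3 spans 89313899 to 89322965 and Efna4 spans 89333390 to 89338028, all on the minus strand, with gaps of 32.8 kb and 10.4 kb. Each line gives the 250 bases before the RefSeq start (GRCm38.p6), 5′ to 3′ on the gene's strand. Capitals mark the short SMAD-binding element CAGAC or its complement GTCTG, SMADs being the transcription factors downstream of TGFB1 receptors.
Efna1, chr3:89280952-89281201, minus strand: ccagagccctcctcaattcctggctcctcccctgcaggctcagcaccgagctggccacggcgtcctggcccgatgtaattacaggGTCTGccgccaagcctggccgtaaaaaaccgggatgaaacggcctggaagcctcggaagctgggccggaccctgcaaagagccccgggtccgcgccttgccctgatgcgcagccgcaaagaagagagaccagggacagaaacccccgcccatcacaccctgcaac
Efna3, chr3:89322940-89323189, minus strand: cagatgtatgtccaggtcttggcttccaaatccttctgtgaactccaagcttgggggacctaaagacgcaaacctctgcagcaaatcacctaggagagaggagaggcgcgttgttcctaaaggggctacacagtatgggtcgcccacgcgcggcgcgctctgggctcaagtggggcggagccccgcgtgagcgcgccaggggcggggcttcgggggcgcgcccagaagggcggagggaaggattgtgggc
Efna4, chr3:89338029-89338278, minus strand: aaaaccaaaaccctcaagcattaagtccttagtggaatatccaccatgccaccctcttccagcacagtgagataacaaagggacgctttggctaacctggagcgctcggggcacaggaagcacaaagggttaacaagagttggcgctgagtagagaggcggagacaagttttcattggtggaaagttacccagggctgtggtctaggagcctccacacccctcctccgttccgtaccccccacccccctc
Efna1 holds 1 such element, Efna3 none and Efna4 none. RefSeq and GENCODE starts can differ. The Efna1 window ends 191 bases past the M21 start, so most of it lies inside the M21 gene. The Efna3 window ends 26 bases past the M21 start, and the Efna4 window ends at it.

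Sema3c and Sema3d, which rose by a similar amount, and Epha4 are shown with the same marking because the number of elements differs among these strong risers.
Sema3c, chr5:17574566-17574815, plus strand: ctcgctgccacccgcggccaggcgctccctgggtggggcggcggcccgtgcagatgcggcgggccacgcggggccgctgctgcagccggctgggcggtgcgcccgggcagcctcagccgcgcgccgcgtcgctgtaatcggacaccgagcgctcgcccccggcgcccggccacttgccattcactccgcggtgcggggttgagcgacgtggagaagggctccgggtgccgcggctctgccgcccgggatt
Sema3d, chr5:12382916-12383165, plus strand: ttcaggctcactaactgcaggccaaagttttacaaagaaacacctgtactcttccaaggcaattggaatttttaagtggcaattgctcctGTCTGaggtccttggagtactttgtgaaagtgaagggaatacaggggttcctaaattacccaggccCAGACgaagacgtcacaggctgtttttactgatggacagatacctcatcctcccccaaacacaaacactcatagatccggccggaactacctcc
Epha4, chr1:77515089-77515338, minus strand: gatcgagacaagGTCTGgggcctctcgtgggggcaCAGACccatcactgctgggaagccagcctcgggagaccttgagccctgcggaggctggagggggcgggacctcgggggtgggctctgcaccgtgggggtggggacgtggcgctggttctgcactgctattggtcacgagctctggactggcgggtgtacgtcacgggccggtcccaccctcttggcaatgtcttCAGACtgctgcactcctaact
Sema3c holds 0 elements, Sema3d 2 and Epha4 3. The Sema3c window ends 535 bases past the M21 start, so all of it lies inside the M21 gene. The Sema3d window ends 219 bases before the M21 start, and the Epha4 window ends at it. The element counts of Sema3c and Sema3d therefore do not compare the same kind of sequence. Promoter windows were found for 60 of the 69 members. CAGAC, on either strand, was in 8 of 19 windows of members called higher, 3 of 5 of members called lower, 8 of 14 of tested members not called, and 42.2% of all 32851 windows. The longer palindrome GTCTAGAC was in none of the members' windows and in 0.2% of all. TGANTCA, the AP-1 site, was in 1 window of a member called higher (Sema4c), in none of those lower or not called, and in 6.7% of all. GGGCGG, the SP and KLF factor box, was in 16 of 19, 4 of 5 and 12 of 14 of the members called higher, lower and not called, and in 32.7% of all. GGAATG, the TEAD site, was in 3 of 19, 0 of 5 and 1 of 14 in the same order, and in 12.6% of all. Among the 22 windows of members under the filter, CAGAC was in 10, TGANTCA in 0, GGGCGG in 12 and GGAATG in 2. The windows counted as all were not limited to tested genes, so these shares do not compare genes of like abundance. These are letter matches on either strand, not binding sites.

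Class 3 semaphorins, the secreted class, had the highest summed level of the ligand families, and 3 of their 6 tested members rose. Sema3c was at 107, 117 and 114 TPM in the TGFB1 libraries, against 41.1, 38.6 and 44 TPM in the untreated ones (log2 fold change 1.43, SE 0.0705, adjusted p = 0.00012). Sema3c binds neuropilins and Plxnd1. Sema3d was at 124, 124 and 119 TPM in the TGFB1 libraries, against 45, 42.8 and 51.5 TPM in the untreated ones (log2 fold change 1.38, SE 0.0788, adjusted p = 0.0002). Sema3a was at 33.1, 34.9 and 32.1 TPM in the TGFB1 libraries, against 16.8, 15.4 and 17.9 TPM in the untreated ones (log2 fold change 0.96, SE 0.0775, adjusted p = 0.000549). In each of these 3 genes every TGFB1 library lay above every untreated one, and the TGFB1 libraries lay close together. Sema3a is the archetypal repellent of axons and acts through Nrp1 and A-type plexins. Over the fits that leave out a library the log2 fold change stayed between 1.38 and 1.48 for Sema3c, between 1.33 and 1.46 for Sema3d and between 0.90 and 1.01 for Sema3a.

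Sema3f, which acts through Nrp2, was the most abundant class 3 gene and was not called. Sema3f was at 144, 178 and 176 TPM in the TGFB1 libraries, against 190, 186 and 189 TPM in the untreated ones (log2 fold change -0.19, SE 0.0892, adjusted p = 0.155). Its groups did not overlap, as in 49.8% of all tested genes, with TGFB1 replicate 1 lowest. Without TGFB1 replicate 1 the Sema3f log2 fold change was -0.089 (adjusted p = 0.179). Sema3e, which can bind Plxnd1 without a neuropilin, was at 34 ± 5.53 TPM with TGFB1 and 37.2 ± 4.18 TPM without (log2 fold change -0.13, adjusted p = 0.497). Sema3b was at 6.05 ± 0.858 TPM with TGFB1 and 7.09 ± 1.01 TPM without (log2 fold change -0.20, adjusted p = 0.31). Both had overlapping groups. Sema3g was under 1 TPM on average, at 1.73, 0.394 and 0.436 TPM in the TGFB1 libraries and 0.0123 to 0.0718 TPM in the untreated ones.

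The mix of class 3 transcripts differed between groups. Summed over the 7 genes the level was 443, 498 and 486 TPM in the TGFB1 libraries, against 333, 327 and 352 TPM in the untreated ones. Sema3f made up 32.5% to 36.3% of that sum in the TGFB1 libraries and 53.8% to 57.1% in the untreated ones. Sema3c made up 23.4% to 24.2% in the TGFB1 libraries and 11.8% to 12.5% in the untreated ones, and Sema3d 24.5% to 28.0% in the TGFB1 libraries and 13.1% to 14.7% in the untreated ones. The genes Sema3a, Sema3c, Sema3d and Sema3e all lie on chromosome 5 between 12383385 and 17730268, on the plus strand, and 3 of these 4 rose.

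The membrane-bound semaphorins were lower in level and mixed in direction. Sema4a, a class 4 ligand known mainly from immune cells and retina, fell. Sema4a was at 4.02, 4.43 and 6.04 TPM in the TGFB1 libraries, against 10.4, 13.2 and 12.3 TPM in the untreated ones (log2 fold change -1.17, SE 0.152, adjusted p = 0.00271). The highest TGFB1 value was below the lowest untreated one. Sema6d, a class 6 transmembrane ligand of Plxna1, fell too. Sema6d was at 2.23, 4.7 and 4.52 TPM in the TGFB1 libraries, against 7.67, 7.32 and 6.78 TPM in the untreated ones (log2 fold change -0.82, SE 0.222, adjusted p = 0.0323). TGFB1 replicate 1 was lowest, and the Sema6d call was lost with no filter and without any single untreated library (adjusted p up to 0.0973). Sema7a, a GPI-anchored semaphorin that binds Plxnc1 and integrins, rose from a low level. Sema7a was at 5.5, 3.13 and 2.56 TPM in the TGFB1 libraries, against 0.884, 0.828 and 1.16 TPM in the untreated ones (log2 fold change 1.23, SE 0.236, adjusted p = 0.0102). TGFB1 replicate 1 was highest and the groups did not overlap.

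Sema4c, a ligand of Plxnb2, was called higher by a small margin. Sema4c was at 18.1, 13.6 and 14.6 TPM in the TGFB1 libraries, against 10.7, 11.8 and 10.9 TPM in the untreated ones (log2 fold change 0.43, SE 0.113, adjusted p = 0.0298). That call was lost with no filter, under quantile normalization, and without TGFB1 replicate 3 or any single untreated library (adjusted p up to 0.0944). Sema4b was the most abundant class 4 gene, and its groups overlapped. Sema4b was at 24.7, 27.4 and 28.7 TPM in the TGFB1 libraries, against 29.9, 31.4 and 25.8 TPM in the untreated ones (log2 fold change -0.10, SE 0.0958, adjusted p = 0.444). Sema4d, the ligand of Plxnb1, was at 2.03 ± 0.500 TPM with TGFB1 and 1.36 ± 0.145 TPM without (log2 fold change 0.35, adjusted p = 0.147). Sema6c, which averaged 5.55 TPM over all 6 libraries against 5.54 TPM for Sema6d but was below Sema6d in the untreated mean, was not called either. Sema6c was at 4.55, 5.41 and 5.69 TPM in the TGFB1 libraries, against 4.32, 7.52 and 5.78 TPM in the untreated ones (log2 fold change -0.12, SE 0.182, adjusted p = 0.641). Under the filter, Sema4g was at 1.39 ± 0.192 TPM with TGFB1 and 0.417 ± 0.0478 TPM without, and Sema6b at 0.435 ± 0.0191 TPM with TGFB1 and 0.224 ± 0.0597 TPM without. Sema5a, the more abundant class 5 gene, was at 0.615, 0.319 and 0.472 TPM in the TGFB1 libraries, against 0.398, 0.252 and 0.285 TPM in the untreated ones, and was not tested. Sema4f, Sema5b and Sema6a averaged 0.00859 to 0.0888 TPM over all libraries.

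Of the neuropilins, Nrp2, the main partner of Sema3f, rose. Nrp2 was at 196, 167 and 163 TPM in the TGFB1 libraries, against 87.9, 94.6 and 108 TPM in the untreated ones (log2 fold change 0.85, SE 0.103, adjusted p = 0.00216). Nrp1, the main partner of Sema3a and a VEGF co-receptor, was not called. Nrp1 was at 39.3, 23 and 21.6 TPM in the TGFB1 libraries, against 19.2, 17.1 and 18.4 TPM in the untreated ones (log2 fold change 0.54, SE 0.213, adjusted p = 0.0987). All 3 Nrp1 values after TGFB1 lay above the untreated ones, with TGFB1 replicate 1 well above replicates 2 and 3. Without TGFB1 replicate 1 the Nrp1 log2 fold change was smaller, 0.28, and passed the threshold (adjusted p = 0.035). Nrp2 made up 83.3% to 88.3% of the neuropilin sum in the TGFB1 libraries and 82.0% to 85.5% in the untreated ones.

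Plexins, the signalling receptors, moved in both directions. Plxna1, a partner of neuropilins and of Sema6d, rose; an antisense transcript covers 10.7% of its exonic bases. Plxna1 was at 113, 86.3 and 72.8 TPM in the TGFB1 libraries, against 42.7, 39.2 and 40.3 TPM in the untreated ones (log2 fold change 1.11, SE 0.151, adjusted p = 0.00305). Plxnd1, the receptor of Sema3e and best known in vessels, rose. Plxnd1 was at 17.3, 18.8 and 16.4 TPM in the TGFB1 libraries, against 9.01, 13.4 and 9.76 TPM in the untreated ones (log2 fold change 0.67, SE 0.143, adjusted p = 0.0145). The Plxnd1 call was lost without untreated replicate 3 (adjusted p = 0.0582). Plxna4, a neuropilin partner in neurons, fell and was the largest fall of the set. Plxna4 was at 1.78, 3.63 and 3.81 TPM in the TGFB1 libraries, against 10.2, 11.3 and 8.01 TPM in the untreated ones (log2 fold change -1.44, SE 0.234, adjusted p = 0.00565). Its highest value after TGFB1 was below the lowest untreated value. Plxna1 was higher and Plxna4 lower in the same libraries, and over the fits that leave out a library the log2 fold changes ran from 0.94 to 1.26 for Plxna1 and from -1.58 to -1.19 for Plxna4.

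Plxnb2, a receptor of class 4 semaphorins with broad epithelial expression, was the most abundant plexin and differed little. Plxnb2 was at 174, 182 and 183 TPM in the TGFB1 libraries, against 171, 179 and 179 TPM in the untreated ones (log2 fold change 0.03, SE 0.0526, adjusted p = 0.744). Values of both groups overlapped throughout. Plxnb1, the Sema4d receptor, was at 45 ± 5.82 TPM with TGFB1 and 38.2 ± 5.11 TPM without (log2 fold change 0.23, adjusted p = 0.22). Plxna2 was at 3.06 ± 0.0380 TPM with TGFB1 and 3.19 ± 0.298 TPM without (log2 fold change -0.04) and Plxna3 at 2.53 ± 0.407 TPM with TGFB1 and 2.23 ± 0.374 TPM without (log2 fold change 0.13), and neither was called. Plxnb3 and Plxnc1, the Sema7a receptor, averaged 0.0158 and 0.0112 TPM over all libraries.

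**Figure D2:**
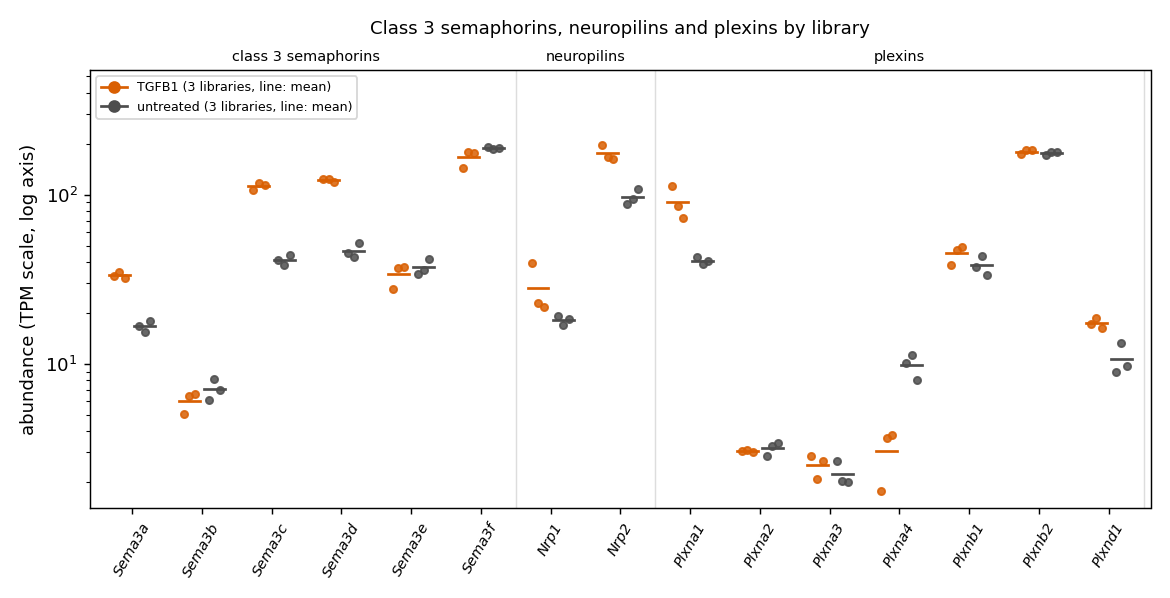
Abundance (TPM scale, log axis) of the tested class 3 semaphorins, neuropilins and plexins; each point is a library and each line a group mean. The TGFB1 values of Sema3c, Sema3d and Plxna1 lie above all untreated values, those of Plxna4 lie below, and those of Plxnb2 overlap near 178 TPM.

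Among ephrin-A ligands, which are anchored by a lipid tail and bind mainly EphA receptors, all 5 genes were tested: 3 were called higher and 1 lower. Efna1, a ligand of Epha2, fell. Efna1 was at 15.8, 22 and 22.1 TPM in the TGFB1 libraries, against 39.4, 38.9 and 33.8 TPM in the untreated ones (log2 fold change -0.88, SE 0.139, adjusted p = 0.0051). Its chromosome 3 neighbours rose. Efna3 was at 6.98, 5.74 and 6.12 TPM in the TGFB1 libraries, against 2.42, 2.15 and 2.3 TPM in the untreated ones (log2 fold change 1.14, SE 0.110, adjusted p = 0.00101). Efna4 was at 12.9, 13.7 and 12.3 TPM in the TGFB1 libraries, against 6.6, 8.21 and 6.23 TPM in the untreated ones (log2 fold change 0.81, SE 0.111, adjusted p = 0.0032). For all 3 genes the groups were separate, Efna1 with the untreated libraries on top, Efna3 and Efna4 with the TGFB1 libraries on top. Of the 31-mers of Efna3 and Efna4, 10.5% and 8.8% occur in another gene, the largest shares among tested members. Antisense transcripts cover 14.1% and 10.5% of their exonic bases, and whether quantification used strand is not stated.

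Efna5 was the most abundant ephrin-A gene and was not called. Efna5 was at 41.3, 59.7 and 57.4 TPM in the TGFB1 libraries, against 69.7, 68.4 and 69.4 TPM in the untreated ones (log2 fold change -0.40, SE 0.136, adjusted p = 0.0649). All of its TGFB1 values were below the untreated ones, with replicate 1 lowest. Without TGFB1 replicate 1 the Efna5 log2 fold change was -0.24 and passed (adjusted p = 0.015). Efna2 was called higher at the edge of the threshold. Efna2 was at 15.4, 14.5 and 16 TPM in the TGFB1 libraries, against 13.7, 11.9 and 11.8 TPM in the untreated ones (log2 fold change 0.28, SE 0.0853, adjusted p = 0.0493). The Efna2 call was lost under 10 of the 16 alternatives (adjusted p up to 0.155), among them the fit without any one TGFB1 library or without untreated replicate 2 or 3. The ephrin-A sum was 92.4, 115.6 and 114 TPM in the TGFB1 libraries, against 131.8, 129.5 and 123.5 TPM in the untreated ones.

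Both abundant ephrin-B ligands, transmembrane proteins that bind mainly EphB receptors, were called, in opposite directions. Efnb1 was at 60.2, 73.6 and 75.6 TPM in the TGFB1 libraries, against 145, 128 and 119 TPM in the untreated ones (log2 fold change -0.90, SE 0.111, adjusted p = 0.00229). Efnb2 was at 71.8, 61.4 and 59.7 TPM in the TGFB1 libraries, against 44.4, 38.3 and 46.2 TPM in the untreated ones (log2 fold change 0.57, SE 0.101, adjusted p = 0.00758). Efnb1 was separate and lower in the TGFB1 libraries, and Efnb2, the ligand of Ephb4 in arteries, was separate and higher. Efnb2 made up 44.0% to 54.2% of the ephrin-B sum in the TGFB1 libraries and 23.0% to 27.7% in the untreated ones. The sum itself was 133, 136 and 136 TPM in the TGFB1 libraries, against 190, 167 and 166 TPM in the untreated ones. Over the fits that leave out a library the log2 fold changes ran from -0.96 to -0.80 for Efnb1 and from 0.49 to 0.62 for Efnb2. Efnb3 was under the filter, at 0.616 ± 0.174 TPM with TGFB1 and 0.884 ± 0.192 TPM without.

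Of the 9 EphA receptor genes 3 were tested. Epha4, a receptor of both ephrin-A and ephrin-B ligands, rose. Epha4 was at 16.1, 12.5 and 10.9 TPM in the TGFB1 libraries, against 4.61, 4.58 and 4.93 TPM in the untreated ones (log2 fold change 1.30, SE 0.139, adjusted p = 0.00145). Epha2, an epithelial receptor and the most abundant EphA gene here, was called higher. Epha2 was at 59.1, 38.3 and 38.6 TPM in the TGFB1 libraries, against 31, 24.6 and 27.2 TPM in the untreated ones (log2 fold change 0.67, SE 0.178, adjusted p = 0.0301). TGFB1 replicate 1 was highest for both, and the Epha2 call was lost with no filter and without any single untreated library (adjusted p up to 0.0972). Epha7, a receptor of ephrin-A ligands, was called lower at the edge of the threshold. Epha7 was at 10.0, 11 and 11.8 TPM in the TGFB1 libraries, against 12.7, 13.8 and 13.7 TPM in the untreated ones (log2 fold change -0.28, SE 0.0851, adjusted p = 0.0489). The Epha7 call was lost with any single library left out, with no filter and after rescaling without the most abundant genes (adjusted p up to 0.146). Under the filter, Epha1 was at 0.636 ± 0.282 TPM with TGFB1 and 0.288 ± 0.107 TPM without and Epha5 at 0.268 ± 0.0326 TPM with TGFB1 and 0.288 ± 0.0849 TPM without. The abundant Zyx (mean of 362 TPM over all libraries) overlaps 6.0% of the exonic bases of Epha1 on the other strand. Of the 31-mers of Epha1, 8.4% occur in another gene. Epha8 and Epha10 averaged under 0.05 TPM, and Epha3 and Epha6 were listed at 0 in every library.

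All 3 tested EphB receptor genes rose. Ephb3 was at 19.5, 18.4 and 17.2 TPM in the TGFB1 libraries, against 7.14, 6.75 and 7.5 TPM in the untreated ones (log2 fold change 1.25, SE 0.0813, adjusted p = 0.000298). Ephb4 was at 35.1, 37.8 and 37.1 TPM in the TGFB1 libraries, against 19.5, 23.3 and 22.3 TPM in the untreated ones (log2 fold change 0.73, SE 0.0822, adjusted p = 0.00163). Ephb6 was at 28, 26.4 and 27.7 TPM in the TGFB1 libraries, against 13.1, 20.6 and 15.7 TPM in the untreated ones (log2 fold change 0.72, SE 0.149, adjusted p = 0.0132). No TGFB1 value of these genes lay below an untreated one. Ephb3 is known for positioning epithelial cells in the gut, Ephb4 is the vein receptor of Efnb2, and Ephb6 lacks kinase activity. The Ephb6 call was lost without untreated replicate 3 (adjusted p = 0.0521). Ephb2 was under the filter, at 0.612 ± 0.191 TPM with TGFB1 and 0.173 ± 0.0236 TPM without, and Ephb1 averaged 0.0031 TPM over all libraries. The EphB sum was 83.4, 83.3 and 82.4 TPM in the TGFB1 libraries, against 39.9, 50.8 and 45.7 TPM in the untreated ones.

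In summed level the ephrin system had more receptor and less ligand transcript with TGFB1. The 8 ephrin genes summed to 225, 251 and 250 TPM in the TGFB1 libraries, against 322, 296 and 290 TPM in the untreated ones. The 14 Eph receptor genes summed to 170, 146 and 144 TPM in the TGFB1 libraries, against 88.8, 94.6 and 91.9 TPM in the untreated ones. Neither pair of sums overlapped, and no test was run on them. The lower ligand sum does not stand for the ligands in general: of the 7 tested ephrin genes 4 were called higher and 2 lower. The ligand sum averaged 242 TPM with TGFB1 and 303 TPM without. Efnb1 alone averaged 69.8 TPM with TGFB1 and 131 TPM without, a fall about as large as that of the sum. In the semaphorin system both sums were higher with TGFB1: the 20 semaphorin genes at 506 to 561 TPM in the TGFB1 libraries and 399.7 to 417 TPM in the untreated ones, and the 11 plexin and neuropilin genes at 516 to 586 TPM in the TGFB1 libraries and 383 to 404 TPM in the untreated ones.

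**Figure D3:**
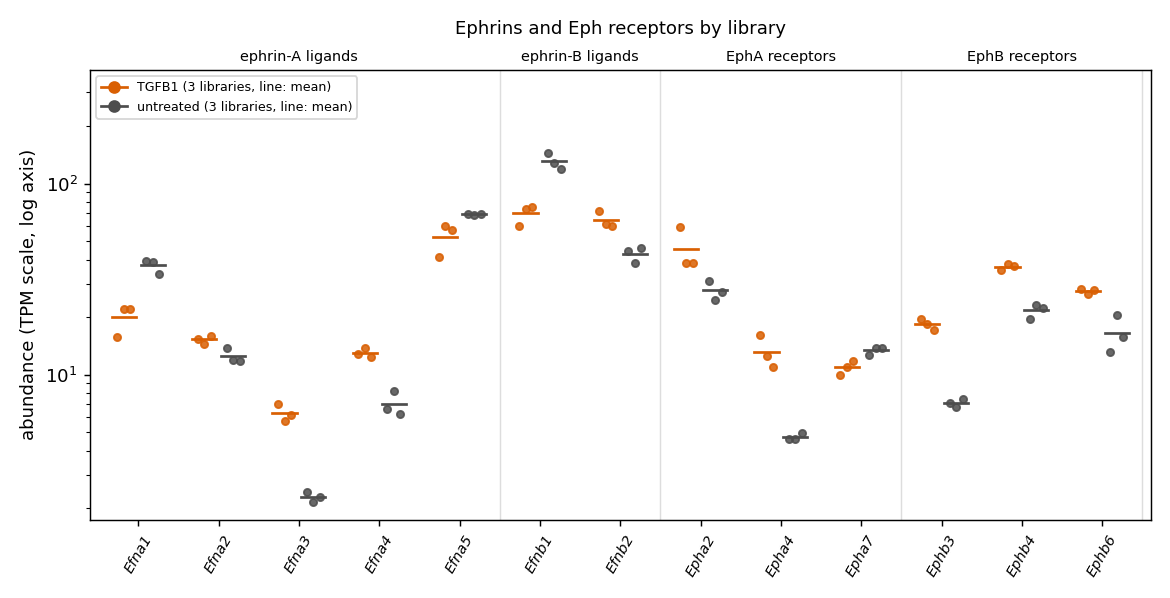
Abundance (TPM scale, log axis) of the 13 tested ephrin and Eph receptor genes; each point is a library and each line a group mean. Efna1 and Efnb1 are lower and Efna3, Efna4, Efnb2, Epha4 and the 3 EphB genes higher in the TGFB1 libraries. The groups do not overlap in any of the 13 genes, as in 49.8% of all tested genes.

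**Figure D4:**
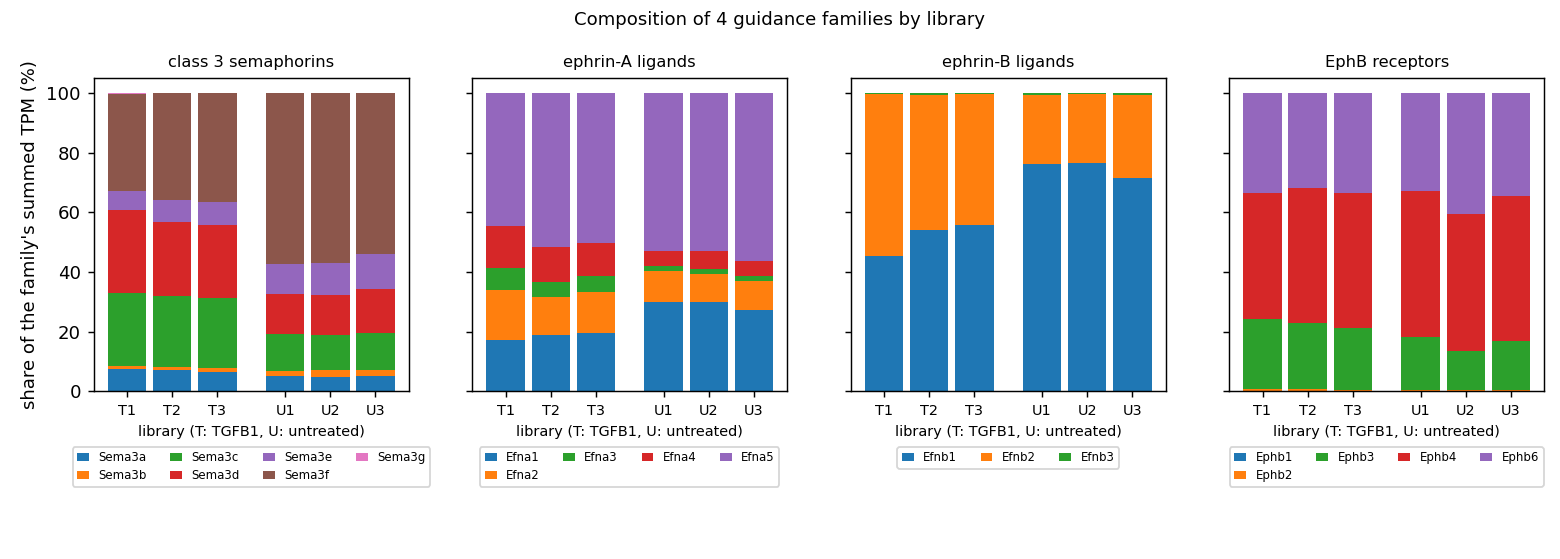
Share (%) of the summed TPM of 4 families held by each member in every library (T1 to T3, TGFB1 replicates; U1 to U3, untreated replicates). The Sema3f share is 32.5% to 36.3% in TGFB1 libraries and 53.8% to 57.1% in untreated ones, and the Efnb2 share 44.0% to 54.2% in TGFB1 libraries and 23.0% to 27.7% in untreated ones.

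Among Slit ligands, large secreted proteins that repel migrating cells, Slit3 rose. Slit3 was at 67.8, 72 and 71.6 TPM in the TGFB1 libraries, against 27.7, 25.6 and 24.1 TPM in the untreated ones (log2 fold change 1.42, SE 0.0707, adjusted p = 0.000121). The 3 TGFB1 values lay together and far above the untreated ones. Slit2 was at 11.9 ± 3.12 TPM with TGFB1 and 10.3 ± 1.32 TPM without and was not called (log2 fold change 0.16, adjusted p = 0.564). TGFB1 replicate 1 was the lowest of all 6 Slit2 values, and without it the log2 fold change was 0.38 and passed (adjusted p = 0.041). Slit1 was under the filter, at 0.157 ± 0.111 TPM with TGFB1 and 0.0388 ± 0.0114 TPM without. Slit3 made up 83.5% to 88.9% of the Slit sum in the TGFB1 libraries and 68.2% to 74.2% in the untreated ones.

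Robo1 and Robo2, the main Slit receptors, were at or near 0: Robo1 averaged 0.00234 TPM over all libraries and Robo2 was listed at 0 in each. Robo3, a divergent member known from commissural axons that binds Nell2, rose. Robo3 was at 4.6, 3.36 and 4.11 TPM in the TGFB1 libraries, against 0.835, 1.5 and 0.823 TPM in the untreated ones (log2 fold change 1.30, SE 0.178, adjusted p = 0.0032). The lowest TGFB1 value was above the highest untreated one. Robo4, the endothelial member, was the more abundant of the pair and was not called. Robo4 was at 5.1, 7.9 and 10.6 TPM in the TGFB1 libraries, against 3.85, 4.82 and 4.7 TPM in the untreated ones (log2 fold change 0.65, SE 0.228, adjusted p = 0.0705). All 3 Robo4 values after TGFB1 lay above the untreated ones, but they were spread widely. Without TGFB1 replicate 1 the Robo4 log2 fold change was 0.90 and passed the threshold (adjusted p = 0.00477). Robo4 (37401897 to 37415115, plus strand) and Robo3 (37415669 to 37433246, minus strand) lie tail to tail on chromosome 9 of GRCm38, 0.554 kb apart.

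Netrins were scarce. Ntn4, a basement membrane netrin that binds laminin, was the only tested netrin. Ntn4 was at 3.39, 8.14 and 7.46 TPM in the TGFB1 libraries, against 6.54, 8.48 and 7.17 TPM in the untreated ones (log2 fold change -0.26, SE 0.277, adjusted p = 0.509). TGFB1 replicate 1 was lowest and the other TGFB1 libraries lay among the untreated ones. Ntn1, the classic netrin, was under the filter at 0.935, 1.1 and 1 TPM in the TGFB1 libraries, against 0.225, 0.387 and 0.225 TPM in the untreated ones. Ntn5 averaged 0.0491 TPM over all libraries.

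Unc5b, a netrin and Flrt receptor that can promote apoptosis when unbound, held nearly all of the Unc5 signal and rose. Unc5b was at 133, 101 and 101 TPM in the TGFB1 libraries, against 69.4, 65 and 66 TPM in the untreated ones (log2 fold change 0.72, SE 0.114, adjusted p = 0.00514). The lowest TGFB1 value was well above the highest untreated one. Unc5a, Unc5c and Unc5d averaged 0.0236 to 0.064 TPM over all libraries. Dcc, the other main netrin receptor, was listed at 0 in every library. Neo1, its close relative and a receptor of netrins and RGM proteins, rose. Neo1 was at 68, 79.5 and 81.5 TPM in the TGFB1 libraries, against 46.6, 49 and 42.4 TPM in the untreated ones (log2 fold change 0.72, SE 0.0920, adjusted p = 0.00264).

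**Figure D5:**
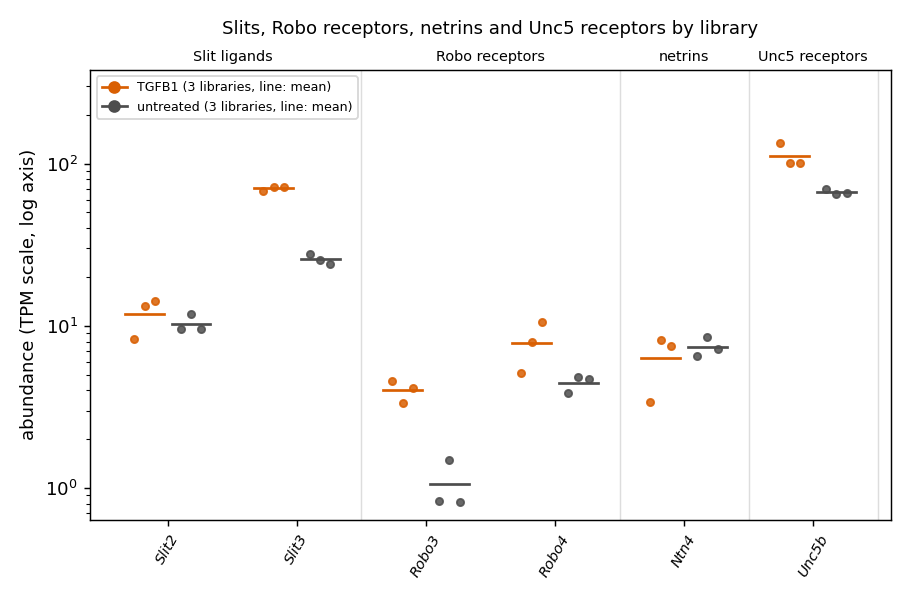
Abundance (TPM scale, log axis) of the tested Slit, Robo, netrin and Unc5 genes; each point is a library and each line a group mean. Slit3, Robo3 and Unc5b are higher in every TGFB1 library than in any untreated one, while Slit2 and Ntn4 overlap.

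The proteins that carry these signals inside the cell, and other co-receptors and ligands, were described from 4 lists with 100 genes in all. These lists too were chosen with earlier results of these data known, so their counts describe the lists and are no test of a pathway. Of the 82 tested, 29 were called higher and 10 lower, beside 15.8% and 14.6% of all tested genes, and the median log2 fold change was 0.12. Without TGFB1 replicate 1 the counts were 30 and 11. Without TGFB1 replicate 2 they were 19 and 6, and without TGFB1 replicate 3 they were 19 and 7. Without untreated replicates 1, 2 and 3 they were 19 and 8, 20 and 6, and 18 and 5. Without TGFB1 replicate 1 the counts over all genes, given above, were also above those with all libraries. In each of the other fits they were also below those with all libraries. Of the Slit and Robo list 11 of 17 tested genes were higher and 1 lower. Of the plexin and neuropilin list 9 of 25 were higher and 5 lower, of the Eph and ephrin list 6 of 25 and 4, and of the netrin and Unc5 list 6 of 19 and 0. Fyn, Nck1, Pak1 and Flrt3 stand in more than a single list.

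Dpysl3 and Crmp1, both collapsin response mediators, a cytosolic family that acts downstream of Sema3a in neurons, had the largest rises of the 4 lists. Dpysl3 was at 127, 83.3 and 79.4 TPM in the TGFB1 libraries, against 16.5, 22.6 and 19.3 TPM in the untreated ones (log2 fold change 2.23, SE 0.196, adjusted p = 0.000763). Crmp1 was at 15.6, 8.92 and 8.91 TPM in the TGFB1 libraries, against 1.06, 2.02 and 1.53 TPM in the untreated ones (log2 fold change 2.23, SE 0.241, adjusted p = 0.00146). Both were separate between groups. Of the other family members listed, Dpysl2 was at 7.29 ± 1.05 TPM with TGFB1 and 5.8 ± 0.584 TPM without and was not called (log2 fold change 0.28, adjusted p = 0.132), Dpysl5 was under the filter at 0.140 ± 0.117 TPM with TGFB1 and 0.195 ± 0.0294 TPM without, and Dpysl4 was listed at 0 in every library. Gpc1, a heparan sulfate proteoglycan that binds Slits, rose; 18.4% of its 31-mers occur in another gene. Gpc1 was at 25.2, 16.6 and 14.5 TPM in the TGFB1 libraries, against 5.14, 4.38 and 4.48 TPM in the untreated ones (log2 fold change 1.77, SE 0.193, adjusted p = 0.00151). Flrt3, a membrane ligand of Unc5 receptors that also binds Robo1, rose. Flrt3 was at 31.1, 15.8 and 13.8 TPM in the TGFB1 libraries, against 6.37, 5.35 and 6.88 TPM in the untreated ones (log2 fold change 1.48, SE 0.281, adjusted p = 0.00973). In Dpysl3, Crmp1, Gpc1 and Flrt3 TGFB1 replicate 1 was the highest library.

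Rnd1, a small GTPase that binds plexins, had the largest fall. Rnd1 was at 16, 36.8 and 36.8 TPM in the TGFB1 libraries, against 102, 89 and 99.9 TPM in the untreated ones (log2 fold change -1.76, SE 0.301, adjusted p = 0.00673). TGFB1 replicate 1 was lowest. Rnd2, a related GTPase whose exons are overlapped for 11.4% of their length by the abundant Vat1 on the other strand, was lower, at 13.5 ± 1.26 TPM with TGFB1 and 22 ± 1.15 TPM without (log2 fold change -0.67, adjusted p = 0.0027). Arhgef12, which binds B-type plexins, was lower, at 38.1 ± 5.69 TPM with TGFB1 and 59.2 ± 6.5 TPM without (log2 fold change -0.63, adjusted p = 0.0128). Itsn1, an exchange factor linked to EphB receptors, was called lower at 30.3 ± 7.23 TPM with TGFB1 and 45.9 ± 4.95 TPM without (log2 fold change -0.61, adjusted p = 0.0418), a call lost with no filter, without intensity trend, after rescaling, and without TGFB1 replicate 2 or any single untreated library (adjusted p up to 0.126). Met, the HGF receptor and a partner of B-type plexins, was called lower at 33.7 ± 6.62 TPM with TGFB1 and 50.2 ± 4.33 TPM without (log2 fold change -0.58, adjusted p = 0.0279), a call lost with no filter and without any single untreated library (adjusted p up to 0.0912).

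Adam10, the protease that sheds ephrins, was at 184 ± 7.84 TPM with TGFB1 and 167 ± 3.58 TPM without and was not called (log2 fold change 0.14, adjusted p = 0.107), although it passed without TGFB1 replicate 1 (log2 fold change 0.17, adjusted p = 0.0314). Flrt2, another Unc5 ligand, was at 86.1 ± 17 TPM with TGFB1 and 66.4 ± 2.06 TPM without and was not called (log2 fold change 0.35, adjusted p = 0.0821), but passed without TGFB1 replicate 1 (log2 fold change 0.20, adjusted p = 0.0395). L1cam, a neuropilin partner, averaged 0.186 TPM with TGFB1 and 0.194 TPM without, and was not tested.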

How the data were processed

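RNA abundance was measured in 6 libraries of m1102 cells, 3 given TGFB1 and 3 untreated. Per the labels' protocols, poly(A) RNA was selected from 250 ng of total RNA and the kit kept strand information. Tools and build in the submitters' processing notes are GRCm38, kallisto 0.44.0 and sleuth 0.30.0, without their roles. The deposited values are a TPM-scale signal whose column totals run from 983434 to 1026702, so they are not plain TPM. They hold no counts, so read depth is unknown. The columns' prefix, Mono, is not explained in the labels.

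Values were fitted as log2(TPM + 1) with limma 3.58.1 (R 4.3.3, intensity trend) over the 12257 rows with a mean of at least 1 TPM, and the script was tested on simulated data. Members were found by symbol, 1 row each. Every tested member is named; called members and the most abundant member of each family are given in every library. Effectors named are the 5 called in each direction with the largest change, and always Dcc, Neo1, Flrt2, Flrt3, Met, L1cam and Adam10, of which Flrt3 and Met are also among those 5. Of the 5 rises 4 are given, and the other is not reported here. Dpysl2, Dpysl4 and Dpysl5 were added after their values were seen. The members and lists were chosen with earlier results of these data known. Coordinates are GENCODE M21 (GRCm38), which held all 69 members' IDs, and promoters are RefSeq, GRCm38.p6. Shared 31-mers and motifs were counted with Python 3.11.15. Whether quantification used strand is not given in the labels. The alternatives were other pseudocounts, filters, scalings and variance models, identical rows kept once, a replicate block and each library left out.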

Additional observations from a re-analysis of the deposited data

How the results depend on the processing

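The 16 alternatives gave 666 values for the tested members. In 627 of them the call was the same, in 34 it was lost with the direction kept, in 5 it was gained with the direction kept, and no called member changed direction. Of the members not called, Ntn4 (0.07), Sema3e (0.01) and Unc50 (0.03) had a log2 fold change above 0 without TGFB1 replicate 1, and Sema6c (0.05) without untreated replicate 2. Of the 26 called members 19 kept their call under each alternative that tested them (a filter of a mean of 5 TPM left 36 members), 15 of them higher and 4 lower. The other 7 were Efna2, Epha2, Epha7, Ephb6, Plxnd1, Sema4c and Sema6d. The count of members called higher ran from 16 to 22 over the fits that leave out a library and from 17 to 21 over the others. The count called lower ran from 4 to 6 over both. Sema4g is among the higher members without untreated replicate 1 or 3. Over all genes, those called higher ran from 1121 to 1992 with a library left out and from 1518 to 2353 otherwise. Those called lower ran from 915 to 1951 and from 1313 to 1949 in the same order. With no filter 65 members were tested, and Sema4g, Ntn1, Ephb2 and Sema6b, all under 1 TPM on average, were called higher. Effector genes called higher ran from 18 to 30 and those called lower from 5 to 11 with a library left out. With no filter 20 effector genes were higher and 6 lower, beside 1518 and 1313 of 22740 genes.

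The replicate numbers shared by both groups were not taken to pair the samples: deviations from the group means correlated at 0.198, 0.153 and -0.038 for replicates 1, 2 and 3. With the replicate block 20 members were higher and 6 lower, with Robo4 gained (adjusted p = 0.0333) and Efna2 lost, and 27 and 10 effector genes. Over all genes the block gave 1906 higher and 1924 lower. With mitochondrial genes and the 20 most abundant genes taken out of the scaling, 2353 of all genes were higher and 1443 lower, against 1937 and 1788 as deposited, and 20 members were higher and 5 lower. Depth is unknown, so the counting error of members near 1 TPM cannot be given.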
